A study of Sus scrofa with 24 samples.

Results

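The ubiquitin-specific proteases are described here in the ileum and colon of pregnant sows as the 48 genes whose symbol starts with USP followed by a digit, out of 20674 genes in the deposited expression table. The sows were fed 1 of 4 diets from breeding until gestation day 114. The low-fibre diet held 3.73% crude fibre (LF) and was also given with 0.05% N-carbamylglutamate (L+N). The high-fibre diet held 7.46% crude fibre (HF) and was likewise given with 0.05% N-carbamylglutamate (H+N). N-carbamylglutamate (NCG) mimics N-acetylglutamate, which switches on carbamoyl phosphate synthetase and so arginine and urea synthesis. The trial had 100 sows per diet, and poly(A) RNA was sequenced from 3 libraries per tissue and diet, 24 in all. All animals were female and pregnant, and no non-pregnant or untreated group was used here. Nothing in the labels states that replicates are different animals, or that ileum and colon were taken from the same ones, so a p-value here reflects only how libraries of a group spread, which may be technical. The RNA came from pieces of gut, in which fewer cells of a type and less RNA per cell cannot be told apart.

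Ubiquitin-specific proteases are cysteine proteases that remove ubiquitin from proteins or trim ubiquitin chains, and so reverse the work of ubiquitin ligases. They form the main family of deubiquitinases, and single members act on histones, signalling proteins, endosomal receptors, the proteasome or organelle membranes. In the gut epithelium such enzymes act in Wnt and TGF-beta signalling, in receptor turnover and in the interferon response. USP6NL shares the symbol but is a GTPase-activating protein for Rab proteins and not a protease, so 47 of the 48 are deubiquitinases or their inactive relatives.

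Library totals were 11951729 to 19896941 counts in the ileum and 14843272 to 18575695 in the colon. HOXA13, a homeobox gene of the hindgut, was at 0 in 11 of the 12 ileum libraries and at 33.5 to 75.6 CPM in the colon. CPM are read counts scaled to a common library size. FABP6, the bile acid carrier of the distal ileum, passed 500 CPM in only 3 of the 12 ileum libraries (LF replicate 1, HF replicate 2 and H+N replicate 2), with a median of 5.31 CPM over all 12. In the colon, LF replicate 2 and H+N replicate 1 had summed enterocyte markers of 125 and 362 CPM, against 2436 to 11949 CPM in the other 10 libraries. Most results that rest on these libraries are given with and without them.

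All 48 members had the same gene ID, symbol, start and end in the RefSeq annotation of the pig build Sscrofa11.1, and they lay on 16 chromosomes. Their deposited lengths ran from 1387 to 20989 bases with a median of 5795.5, against 3051 for all genes. Together they held 0.169% to 0.307% of the counts of an ileum library and 0.175% to 0.274% of those of a colon library. USP26 had 0 counts in all 24 libraries, which allows at most 0.151 to 0.251 CPM in each, and USP50 had 0 counts in 20 libraries and at most 2 in the others. The other 46 members passed the filter on low counts and were tested. In the annotation 9 members overlap another gene, among them USP34 with AHSA2, USP44 with METAP2 and USP14 with THOC1. Whether reads were counted by strand is not given in the sources used here, so reads of such partners may not be told apart. The related genes USP22, USP27X and USP51 carry the same uncertainty, since the handling of reads that match several places is not given either.

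Per gene length, USP7, which stabilises MDM2 and p53, had the highest median level in both tissues. It was 42.6 FPKM in the ileum (34.7 to 74.9 over 12 libraries) and 45.2 FPKM in the colon (31.8 to 50.0). FPKM are counts scaled by gene length and library total. In colon LF replicate 2 and H+N replicate 1, however, USP14 stood above it, at 41.8 and 62.6 FPKM. In the ileum USP7 was followed by USP5, which recycles unanchored ubiquitin chains, at 22.2 FPKM, and by USP10, a p53 deubiquitinase, at 20.1 FPKM. In the colon the next were USP5 at 19.8 FPKM and USP22, the deubiquitinase of the SAGA coactivator complex, at 19.5 FPKM. These lower pairs did not separate: in the ileum USP5 ranged from 12.1 to 28.6 FPKM and USP10 from 15.3 to 22.3 FPKM. At the low end were USP27X with medians of 0.676 FPKM in the ileum and 0.589 in the colon, USP35 with 0.411 and 0.697, and USP51 with 0.181 and 0.159. The median member stood at 5.15 FPKM in the ileum and 5.16 FPKM in the colon.

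**Figure D1:**
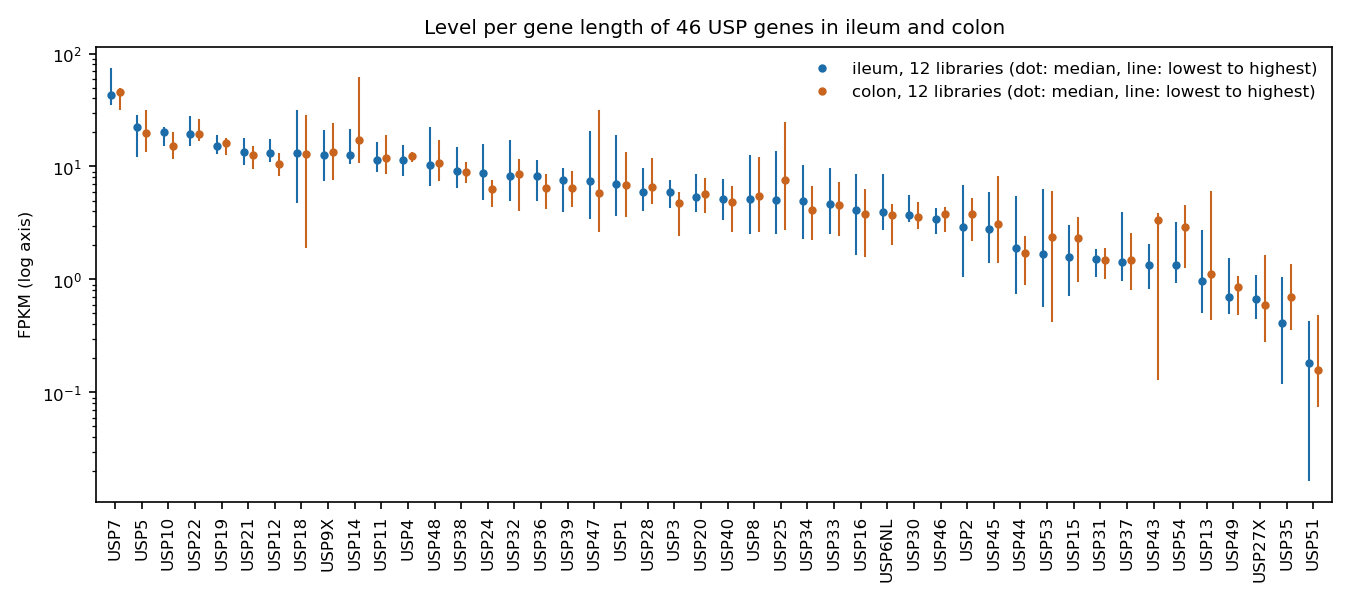
Levels of the 46 tested USP genes in FPKM (log axis), ordered by their ileum median. Dots are medians and lines run from the lowest to the highest of 12 libraries, and USP7 has the highest medians, at 42.6 and 45.2 FPKM.

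With NCG, RNA of a part of the family was higher in the ileum, averaged over both fibre levels. Of the 46 members tested, 12 were higher and 0 lower at an adjusted p of 0.05, with edgeR's quasi-likelihood test and Benjamini-Hochberg adjustment over all 15103 ileum genes. The 12 were USP53, USP47, USP16, USP8, USP25, USP1, USP15, USP45, USP34, USP33, USP44 and USP9X. Over all ileum genes 5.42% were higher and 0.43% lower. The members were chosen by symbol, but the family itself was selected on results of these data, in which log2 changes and adjusted p of the ileum NCG response were known. Nothing is therefore read from these counts, and the ileum values below are a description. The median change of the 46 was 0.10 on the log2 scale, against -0.07 for all genes tested, and 28 members had a positive change. At an unadjusted p under 0.05 stood 23 members of 46, against 21.5% of all genes.

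USP16, which removes ubiquitin from histone H2A, lies at chr13:192376850-192406474 and had the smallest p. It read 12.9, 11.2 and 11.2 CPM in the LF libraries and 39.8, 33.3 and 56.5 CPM with L+N. The HF libraries read 20.0, 18.4 and 17.7 CPM, and the H+N libraries 41.1, 37.3 and 31.3 CPM. Every library with NCG lay above every library without it, and HF lay above LF. The average change was 1.39 ± 0.15 on the log2 scale (SE, adjusted p = 0.00203, edgeR).

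USP53, at chr8:104500204-104560711, encodes a tight-junction protein of the family long classed as catalytically inactive, and it had the largest change among the members. It read 3.20, 4.35 and 3.26 CPM with LF and 18.0, 16.0 and 36.2 CPM with L+N. With HF it read 6.10, 6.08 and 3.82 CPM, and with H+N 18.2, 9.85 and 12.2 CPM. The groups with and without NCG did not overlap, and L+N replicate 3 was the highest of all. The change was 1.99 ± 0.28 on the log2 scale (SE, adjusted p = 0.00303, edgeR).

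USP47, a deubiquitinase of DNA polymerase beta in base excision repair, lies at chr2:47449162-47583893. Its values were 33.8, 28.2 and 29.4 CPM with LF against 93.8, 70.1 and 163 CPM with L+N. With HF they were 35.3, 42.2 and 32.6 CPM, against 81.0, 91.1 and 64.2 CPM with H+N. Again no library with NCG fell within the range of those without, and the change was 1.44 ± 0.20 on the log2 scale (SE, adjusted p = 0.00318, edgeR).

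USP34, which acts on axin in Wnt signalling, lies at chr3:80330896-80589514. It read 51.2, 43.5 and 33.4 CPM with LF, 95.2, 75.3 and 110 CPM with L+N, 44.8, 58.8 and 44.1 CPM with HF, and 86.8, 119 and 93.3 CPM with H+N. The 6 libraries with NCG were all above the 6 without, and the change was 1.05 ± 0.15 (log2, SE, adjusted p = 0.00324, edgeR). Its overlapping partner AHSA2 changed by 0.47 (adjusted p = 0.297).

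USP8, which deubiquitinates receptors and ESCRT proteins at endosomes, lies at chr1:121306031-121376154. It read 17.7, 18.0 and 15.5 CPM with LF and 51.0, 34.2 and 75.4 CPM with L+N, then 20.3, 23.7 and 17.9 CPM with HF and 38.8, 48.7 and 36.6 CPM with H+N. L+N replicate 3 stood highest and the groups did not overlap, with a change of 1.30 ± 0.18 on the log2 scale (SE, adjusted p = 0.00329, edgeR). USP15, a deubiquitinase of SMAD proteins and of the TGF-beta receptor, is the longest member, at chr5:26964380-27082549. It read 22.0, 15.9 and 15.5 CPM with LF and 45.9, 38.4 and 55.2 CPM with L+N, then 19.3, 28.6 and 21.5 CPM with HF and 44.4, 53 and 32.2 CPM with H+N. Its lowest value with NCG, in H+N replicate 3, lay just above its highest value without, and the change was 1.11 ± 0.17 on the log2 scale (SE, adjusted p = 0.00387, edgeR).

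**Figure D2:**
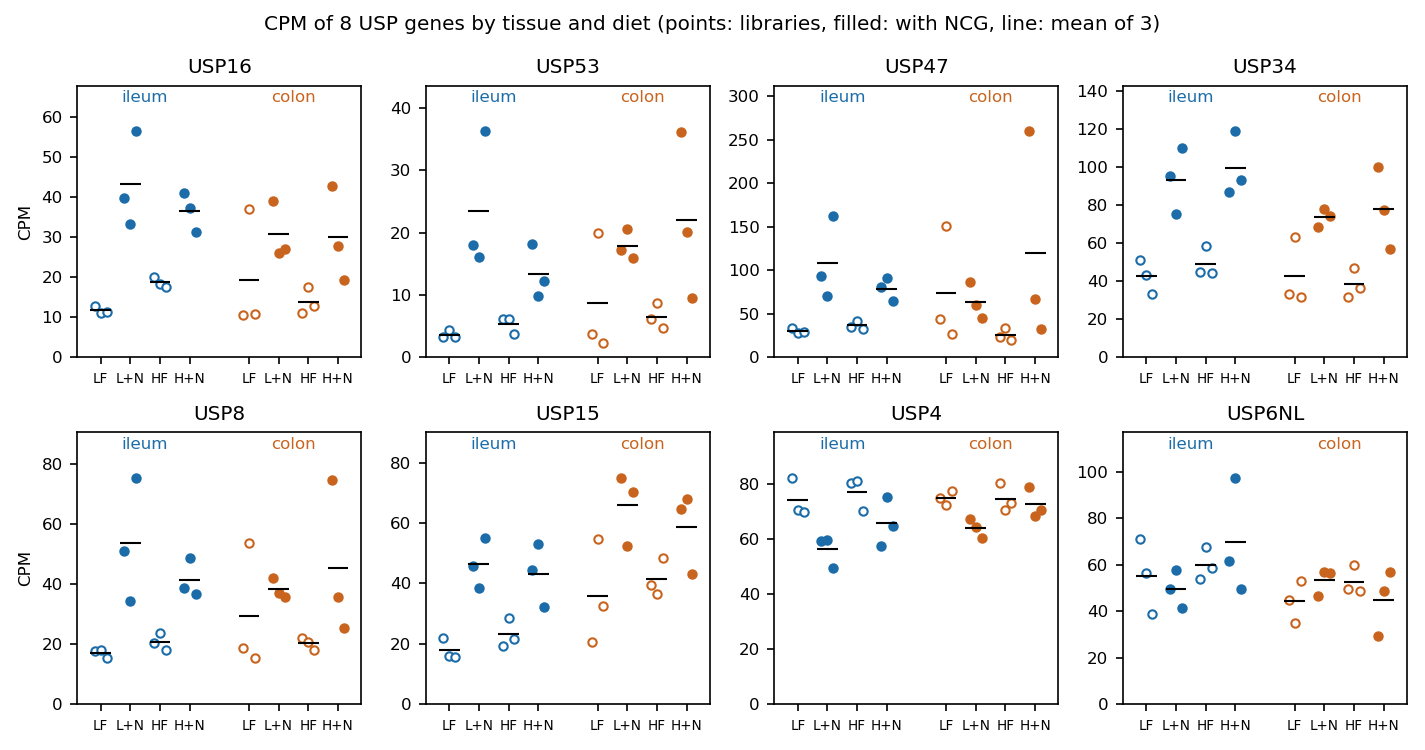
CPM of 8 USP genes in each library by tissue and diet, with filled points for libraries given NCG and a line at the mean of 3. USP16 in the ileum runs from 11.2 to 20.0 CPM without NCG and from 31.3 to 56.5 CPM with it, while USP4 and USP6NL overlap, and colon LF replicate 2 stands high in the first 5 panels.

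The other 6 that were called had smaller changes or wider spread. USP25, a regulator of innate immune signalling, changed by 1.26 ± 0.23 on the log2 scale (SE), USP1, which acts on FANCD2 and PCNA in DNA repair, by 1.15 ± 0.19, and USP45 by 1.10 ± 0.20. USP33, a deubiquitinase of the beta-2 adrenergic receptor, changed by 0.99 ± 0.16, USP44, which holds the mitotic checkpoint, by 0.97 ± 0.24, and USP9X, which acts on SMAD4, by 0.77 ± 0.13. Their adjusted p ran from 0.00493 for USP1 to 0.0427 for USP44 (edgeR). In all 12 called genes the 6 libraries with NCG and the 6 without did not overlap, and no other member separated in this way, against 4.73% of all genes upward and 1.19% downward. Without the 3 libraries high in FABP6 the members that separated upward were 15, against 7.64% of all genes, with USP24, USP37 and USP48 added, and USP4 alone separated downward, against 4.73%. The call of USP44 was lost when any 1 of 11 of the 12 libraries was left out (adjusted p up to 0.116), and that of USP25 without the 3 libraries high in FABP6 (adjusted p = 0.0632). The other 10 were called in each of these fits.

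The calls are given by role, and with lists of at most 8 members and 5.42% of all genes higher no difference between roles was tested. Of 5 members acting in TGF-beta, Wnt and SMAD signalling, USP9X, USP15 and USP34 were higher, and USP4 was among those not called. Of 8 that act on histones H2A or H2B, USP16 and USP44 were higher, and USP3, USP21, USP22, USP27X, USP49 and USP51 were not called. Of 5 acting on endosomes, receptors and trafficking, USP8 and USP33 were higher, and of the 4 listed under p53, MDM2 and DNA damage only USP47. USP1, which acts in DNA repair, was listed under WDR48 instead. One of 3 partners of WDR48 (USP1), 1 of 2 in innate immunity (USP25) and 1 of 2 in the cell cycle (USP44 again) were higher. None of the 3 that work on proteasomal or free ubiquitin (USP5, USP13, USP14), of the 2 on organelle membranes (USP19, USP30) or of the 2 in the spliceosome and nucleolus (USP36, USP39) was called. USP18, which cuts the ubiquitin-like ISG15 from proteins and is induced by interferon, ranged from 8.18 to 37.3 CPM without NCG and from 16.1 to 54.4 CPM with it, and the groups overlapped. Its change was 0.47 ± 0.40 on the log2 scale (SE).

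Members with lower values did not pass the threshold with edgeR. DESeq2 called 15 members higher, with USP24, USP32 and USP37 added, and 3 lower, namely USP4, USP10 and USP39, against 8.67% and 3.12% of all genes. USP4 was also called lower by edgeR with the length trend removed (0.722% of all genes lower) and with marker covariates (4.22%). USP4, a deubiquitinase of the TGF-beta receptor, read 82.3, 70.4 and 69.7 CPM with LF and 59.3, 59.8 and 49.6 CPM with L+N, then 80.5, 81.0 and 70.3 CPM with HF and 57.6, 75.4 and 64.6 CPM with H+N. Only H+N replicate 2 reached the range without NCG, and the change was -0.34 ± 0.11 on the log2 scale (SE, adjusted p = 0.0963, edgeR). USP39, a splicing factor without protease activity, read 63.7, 59.7 and 65.7 CPM with LF and 52.2, 43.3 and 32.0 CPM with L+N, then 72.1, 65.5 and 63.2 CPM with HF and 53.1, 63.6 and 62.7 CPM with H+N. The H+N libraries overlapped those without NCG, and the change was -0.40 ± 0.13 (SE, adjusted p = 0.114). USP10 read 89.1 to 115 CPM without NCG and 75.4 to 93.6 CPM with it, with a change of -0.33 ± 0.12 (SE, adjusted p = 0.145). The members nearest the threshold on the higher side were USP24 at 0.49 (adjusted p = 0.0621) and USP32, a regulator of endosomal Rab proteins, at 0.76 (adjusted p = 0.0752).

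**Figure D3:**
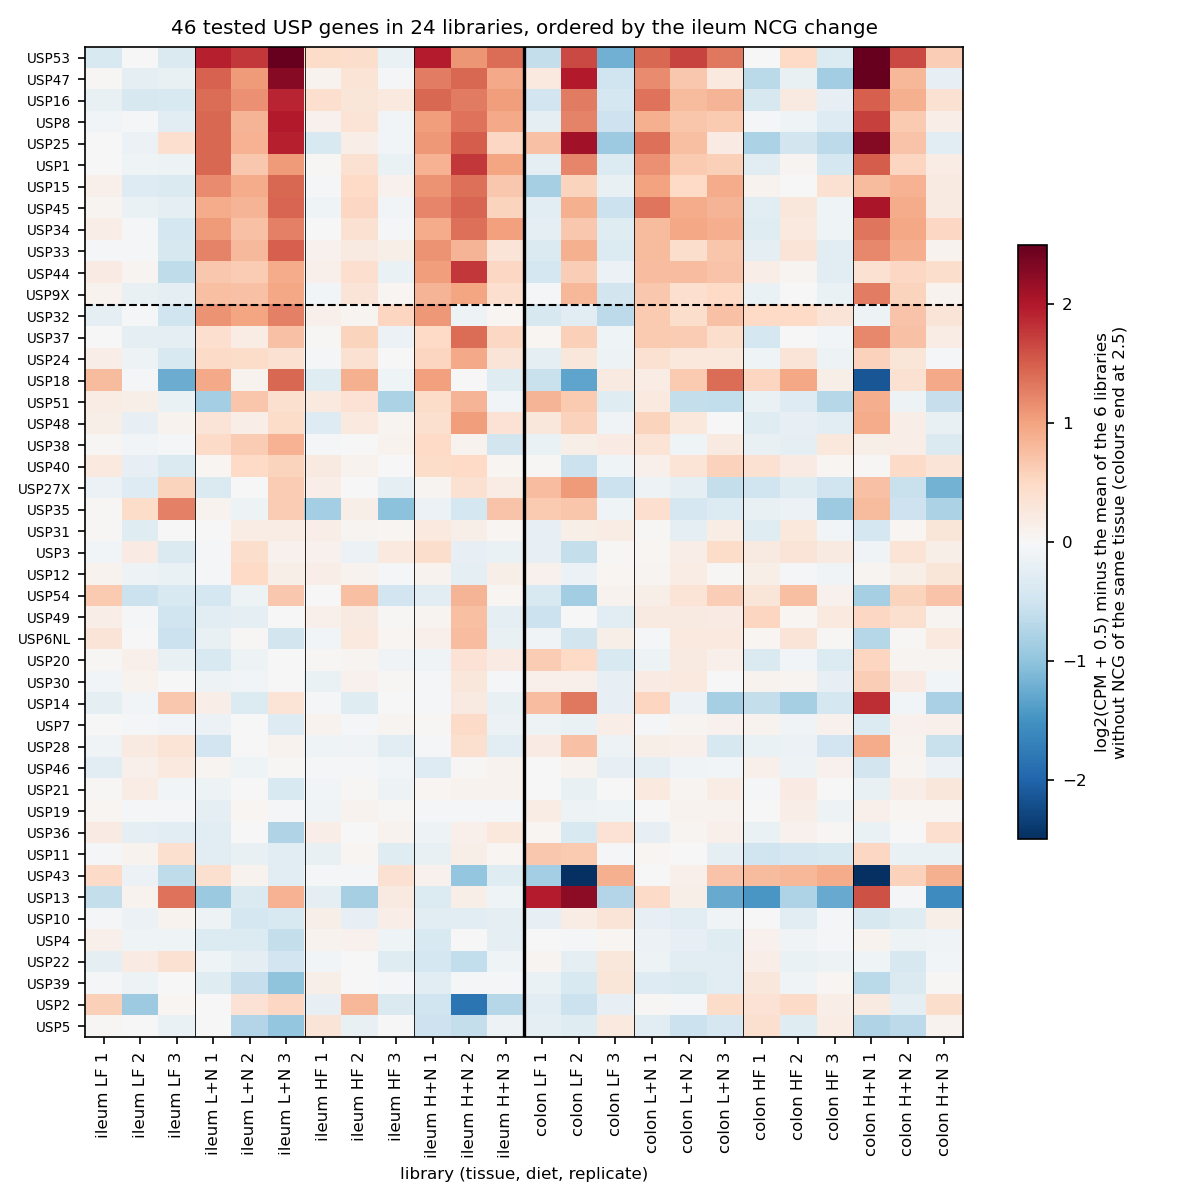
Each of the 46 tested USP genes (rows) in each of 24 libraries (columns) as log2(CPM + 0.5) minus the mean of the 6 libraries without NCG of the same tissue. The 12 genes above the dashed line were higher with NCG in the ileum, and in the colon their colours follow LF replicate 2 and H+N replicate 1 as well as NCG.

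The 12 genes moved together from library to library. Their mean log2(CPM + 0.5) was 4.08 to 4.71 in the 6 ileum libraries without NCG and 5.12 to 5.98 in the 6 with it, while the mean of the other 34 stayed between 4.75 and 4.95 in all 12. The 12 were called for this difference in the same libraries, so the separation of the means follows from that choice. After removal of the group means, the median Pearson correlation over the 66 pairs of these 12 genes was 0.67, against 0.03 over the 561 pairs of the other members. Each correlation is over 12 libraries, whose points share depth and group, and it is given as a description. Genes outside the family that were called higher were not compared in this way. In the ileum the sums of 9 marker lists (ileum, colon, enterocyte, smooth muscle, adipocyte, B cell, T and NK cell, cell cycle and interferon-stimulated genes) overlapped between all libraries with and all without NCG in 9 of 9 cases. Interferon-stimulated genes had a median sum of 147 CPM without and 308 CPM with NCG. Within a fibre level, colon markers did not overlap and went opposite ways, at 122 to 175 CPM with HF and 21.7 to 104 CPM with H+N, and higher with L+N than with LF. Adipocyte markers were highest in L+N replicate 3, at 5155 CPM. In the same ileum library USP53, USP47, USP8, USP16, USP15, USP25 and USP33 were also highest, as was the mean of the 12, at 5.98. The other called genes, USP1, USP9X, USP34, USP44 and USP45, were highest in H+N replicate 2. The part of the adipocyte markers in the result was not tested.

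Within the low-fibre diets, 12 members were higher with L+N than with LF and 0 lower, against 4.24% of all genes higher and 0.106% lower (edgeR). They were the 12 named above with USP32 in and USP44 out. USP32 read 45.9, 52.7 and 37.9 CPM with LF and 117, 107 and 129 CPM with L+N, a change of 1.39 on the log2 scale. With H+N it read 114, 49.1 and 55.2 CPM, and with HF 58.6, 56.0 and 78.0 CPM. Thus 1 of the 3 H+N libraries was at the level of L+N and the other two lay just below the HF libraries. In the same libraries colon markers summed to 83.7 to 145 CPM with LF and 180 to 330 CPM with L+N, and interferon-stimulated genes had medians of 124 and 396 CPM. The part of these markers in the result was not tested. Without the ileum libraries high in FABP6, 10 members were higher, with USP24 in and USP25, USP32 and USP45 out. The call of USP32 was lost there (adjusted p = 0.0604, edgeR) and in 7 of 12 fits that left out 1 library. The count fell to 3 without LF replicate 2, to 6 without LF replicate 3 and to 7 without L+N replicate 3. With only the 6 libraries compared in the fit it fell to 0, with adjusted p of 0.0536 to 0.112 for the 12 (edgeR). The share of all genes called in these fits is not given here, so the falls cannot be set beside it.

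Within the high-fibre diets, 0 members passed for H+N against HF, as did 0% of all genes (edgeR). The smallest adjusted p was 0.322, and 16 of 46 members had an unadjusted p under 0.05, against 8.07% of all genes. DESeq2 called 4 members higher, USP34, USP16, USP1 and USP47, with 1.43% of all genes higher. The interaction of fibre and NCG called 0 members and 0% of all genes (edgeR), and DESeq2 called 0 members. An unadjusted p under 0.05 was found for 4 of 46 members, against 4.45% of all genes (edgeR). The NCG change was thus not shown to differ between the fibre levels. Against LF, H+N had 7 members higher (USP16, USP34, USP15, USP1, USP53, USP8 and USP47) and 0 lower, with 1.87% of all genes higher and 0.00662% lower. These 7 calls fell to 0 without any 1 of LF replicates 1, 2 and 3 or H+N replicates 1 and 2, to 1 without HF replicate 1 or 3 and to 3 without L+N replicate 1 or HF replicate 2. They also fell to 0 without the libraries high in FABP6. For these fits too the share of all genes called is not given here. The comparisons of L+N and of H+N with LF share the LF libraries.

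No USP gene was called for fibre itself, and in neither tissue did the 6 high-fibre and 6 low-fibre libraries of a member separate. Over all genes 0.0265% separated upward and 0.0927% downward in the ileum, and 0.0663% and 0.0332% in the colon. In the ileum 0 members and 0% of all genes passed (edgeR), and DESeq2 called 0 members. An unadjusted p under 0.05 was found for 0 members, against 5.26% of all genes (edgeR). In the colon the fibre effect likewise gave 0 members and 0% of all genes (edgeR), and 0 by DESeq2. There 0 members had an unadjusted p under 0.05, against 4.59% of all genes (edgeR). Smooth muscle markers of the colon did not overlap between LF (31283 to 111502 CPM) and HF (1737 to 2514 CPM). The part of these markers in the fibre result was not tested. USP16 was 11.2 to 12.9 CPM with LF and 17.7 to 20.0 CPM with HF in the ileum, ranges that did not overlap, but its L+N and H+N libraries did overlap. Other members also had LF and HF apart, such as USP32 in the colon, at 29.9 to 39.5 and 59.5 to 67.6 CPM. In the colon USP2 and USP3 were likewise higher with HF and USP11 lower, and in these too L+N and H+N overlapped. The share of all genes with LF and HF apart is not given here.

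In the colon NCG gave 0 members past the threshold, as 0% of all genes (edgeR), with 13 of 46 at an unadjusted p under 0.05 against 12.4% of all genes. DESeq2 called 1 member, USP34, and its share over all genes is not given here. The smallest adjusted p with edgeR was 0.218, for USP34. It read 33.6, 63.3 and 32.0 CPM with LF and 68.7, 77.8 and 74.4 CPM with L+N, then 32.0, 46.9 and 36.8 CPM with HF and 100, 77.5 and 56.9 CPM with H+N. LF replicate 2 lay above H+N replicate 3, and the other values kept the groups apart, with a change of 0.91 ± 0.22 on the log2 scale (SE). The colon is a second set of libraries that did not enter the ileum calls. Whether it came from the same sows is not stated, so it may not be independent of the ileum. All 12 genes called in the ileum had positive changes in the colon, from 0.59 to 1.41 with a median of 0.82. Of the 12, 10 had an unadjusted p under 0.05 in the colon (edgeR). Of all 814 genes called higher in the ileum and tested in the colon, 99.6% were positive, with a median of 0.78, and 59.1% had an unadjusted p under 0.05. Of the 46 members 35 were positive, with a median of 0.18, against 56.7% and 0.06 over all genes.

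LF replicate 2 read high for most of the 12. USP47 was at 44.7, 151 and 26.6 CPM in the colon LF libraries, at 86.7, 60.6 and 44.8 CPM with L+N, at 23.3, 33.3 and 20.5 CPM with HF and at 260, 67.1 and 32.7 CPM with H+N. The 2 highest values belong to LF replicate 2 and H+N replicate 1, the libraries with few enterocyte markers. Their smooth muscle markers summed to 111502 and 103717 CPM. In colon LF replicate 1 these markers summed to 86701 CPM, with USP47 at 44.7 CPM, and a relation was not tested. USP25 read 101 and 115 CPM in LF replicate 2 and H+N replicate 1, and 12.1 to 60.6 CPM in the other 10. USP53 read 19.9 and 36.1 CPM in the same 2 libraries. It read 2.32 to 8.68 CPM in the other 5 without NCG and 9.57 to 20.6 CPM in the other 5 with it. Without LF replicate 2 the colon count was 4 (USP34, USP53, USP16 and USP44, with 1.87% of all genes higher). Without both it was 8, namely USP34, USP53, USP8, USP16, USP45, USP1, USP44 and USP32, with 2.94% of all genes higher, and the change of USP34 was then 0.99 (adjusted p = 0.0135). The fit with the mean levels of smooth muscle and enterocyte markers as covariates called 14 members higher and 1 lower, USP39, with 8.29% of all genes higher. The share of all genes lower in that fit is not given here.

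With all libraries 0 members separated the colon libraries with from those without NCG, against 0.504% of all genes upward and 0.517% downward. Without these libraries 8 separated upward (USP1, USP8, USP9X, USP16, USP34, USP37, USP44 and USP53), against 3.41%. The mean log2(CPM + 0.5) of the 12 was 4.07 to 4.64 in the 5 remaining libraries without NCG and 4.77 to 5.63 in the 5 with it. The median pair correlation of the 12 was 0.90 with all colon libraries and 0.66 without these, and for the other members it was -0.02 and -0.01. A test of whether the NCG change differed between colon and ileum called 0 members and 0% of all genes (edgeR), and 0 members by DESeq2. An unadjusted p under 0.05 was found for 0 members, against 2.99% of all genes (edgeR). For USP47 the difference (colon minus ileum) was -0.46 ± 0.60 on the log2 scale (SE), an error larger than the difference itself.

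**Figure D4:**
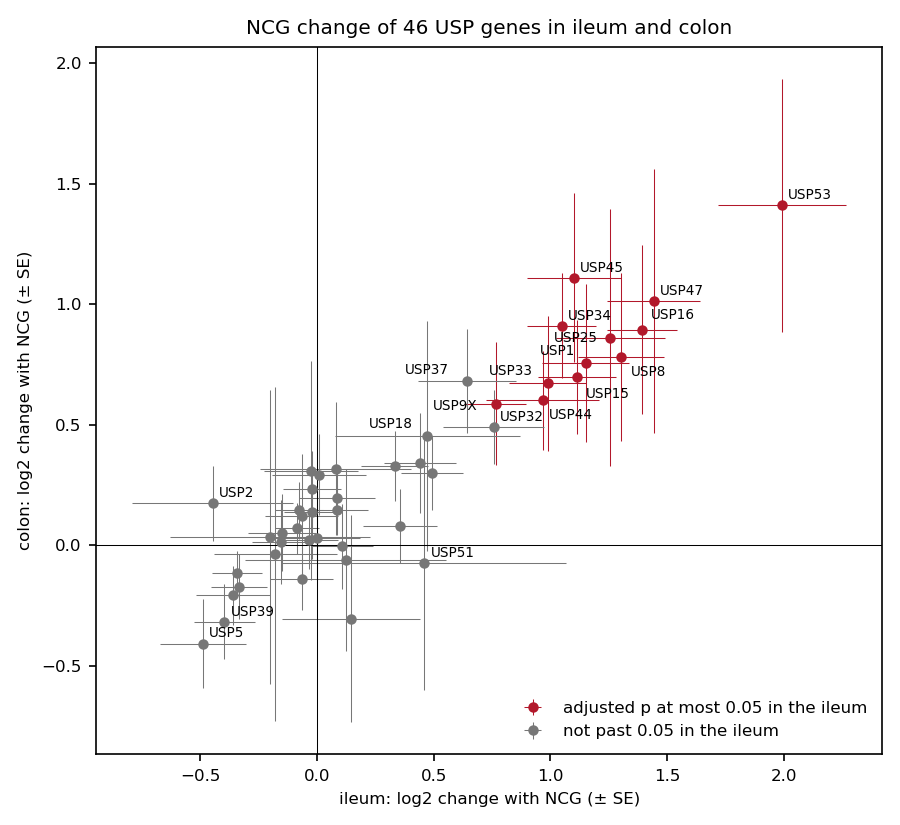
Log2 change with NCG of the 46 tested USP genes in the ileum (horizontal) and the colon (vertical), with bars of 1 SE. The 12 genes called in the ileum (red) run from 0.59 to 1.41 in the colon, and none of the 46 passed in the colon.

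Some members that were not called for NCG varied with a few colon libraries. USP13, a close relative of USP5, read 44.0, 52.9 and 6.38 CPM in the colon LF libraries and 33.9, 10.5 and 3.33 CPM with H+N, against 3.68 to 15.3 CPM with L+N and HF. USP14, which binds the proteasome and trims ubiquitin chains, read 163, 239 and 82.4 CPM with LF and 344, 91.1 and 54.0 CPM with H+N. Its overlapping partner THOC1 was higher with NCG in the ileum by 1.21 on the log2 scale (adjusted p = 0.00364, edgeR), while USP14 changed by -0.03. USP43 went the other way, at 6.81, 1.68 and 23.7 CPM with LF and 0.865, 19.0 and 23.9 CPM with H+N. Thus USP13 and USP14 were highest, and USP43 lowest, in LF replicates 1 and 2 and H+N replicate 1. Their relation to the cell content of these pieces was not tested.

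Across all diets 3 members were higher in the colon, against 12.5% of all genes, and 5 were lower, against 15.9% (edgeR, all 24 libraries, adjustment over 15675 genes). Smooth muscle markers had a median sum of 22813.5 CPM in the colon libraries and 1879.6 CPM in the ileum libraries. Their ranges overlapped, and the part of these markers in the tissue differences was not tested. The change of USP15 was 0.70 ± 0.15 on the log2 scale (SE, adjusted p = 0.00212). In the ileum it read 15.5 to 28.6 CPM without and 32.2 to 55.2 CPM with NCG. In the colon it read 20.5, 54.9 and 32.5 CPM with LF, 75.1, 52.5 and 70.4 CPM with L+N, 39.4, 36.5 and 48.4 CPM with HF and 64.6, 68.1 and 43.1 CPM with H+N. The tissues overlapped, as the ileum with NCG reached the colon values. USP54, also long classed as inactive, was higher by 0.84 ± 0.23 (SE, adjusted p = 0.0104). Its ileum libraries ran from 11.6 to 31.2 CPM and its colon libraries from 16.1 to 50.9 CPM. USP35 was higher by 0.85 ± 0.29 (SE, adjusted p = 0.0349), with 0.559 to 4.65 CPM in ileum libraries and 1.54 to 6.19 CPM in colon libraries. The call of USP35 was lost in 14 of 24 fits that left out 1 library and without the 2 colon libraries low in enterocyte markers (adjusted p = 0.114).

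Of those lower in the colon, USP24 ranged over 47.4 to 119 CPM in ileum libraries and 41.0 to 72.8 CPM in colon libraries, a difference of -0.45 ± 0.10 on the log2 scale (SE, adjusted p = 0.00371, edgeR). USP3, a histone H2A deubiquitinase, had 49.0 to 85.5 CPM (ileum) and 29.3 to 61.2 CPM (colon), a difference of -0.46 ± 0.11 (SE, adjusted p = 0.00392). USP12, which works with WDR48, read 48.5 to 81.6 CPM and 41.0 to 56.6 CPM, a difference of -0.32 ± 0.08 (SE, adjusted p = 0.00496). USP10 was lower by 0.33 and USP36, a nucleolar deubiquitinase, by 0.41, on the log2 scale. Without the 2 colon libraries low in enterocyte markers, 3 members were higher (11% of all genes), with USP43 in and USP35 out, and 8 lower (14.3%), with USP16, USP33 and USP34 added. Without the ileum libraries high in FABP6, 4 were higher (10.6%), with USP2 added, and 6 lower (14.2%), with USP32 added. With all libraries the ranges of the tissues overlapped in each of the 8 called members, and 0 members separated the 12 ileum from the 12 colon libraries, against 0.434% of all genes higher and 1.03% lower.

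Gene length was examined because the USP genes are long. Among all ileum genes the share higher with NCG rose with length, from 1.67% under 4000 bases to 14% at 10000 bases or more. Of the members, 0 of 8 under 4000 bases were called, 1 of 9 from 4000 to 5000 (5.33% of all genes there), 3 of 8 from 5000 to 6000 (8.36%), and 5 of 11 from 6000 to 8000 (10.1%). From 8000 to 10000 bases 0 of 2 were called (14.5%), and at 10000 or more 3 of 8. Across members, which are not independent replicates, Spearman's rho of the ileum change with length was 0.26, and across all genes 0.28. The 8 longest thus held both USP9X, USP15 and USP34, which were higher, and USP3, USP31, USP49, USP54 and USP6NL, whose changes lay between 0.00 and 0.11 on the log2 scale. USP6NL read 38.8 to 70.9 CPM without NCG and 41.1 to 97.5 CPM with it in the ileum, and the highest was H+N replicate 2. With the trend of counts with length removed in each library, 11 members were higher and 1 lower, with 4.36% of all genes higher. The called members had a median length of 6418 bases and the others of 5256.5, and their median ileum levels were 4.81 and 6.82 FPKM.

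**Figure D5:**
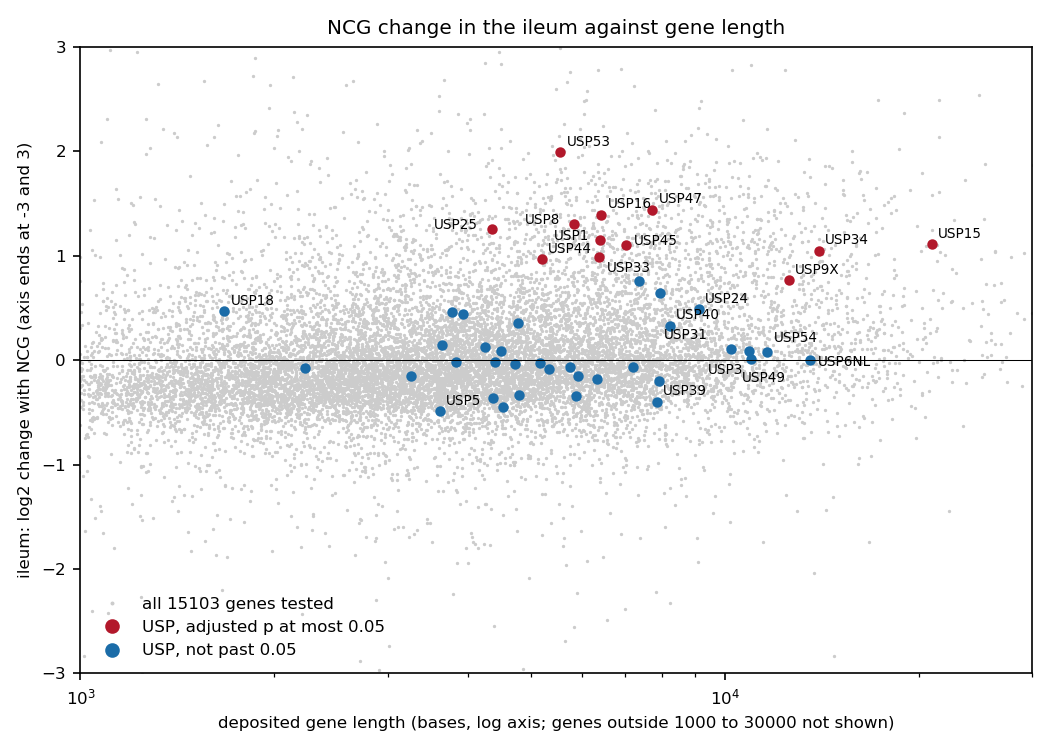
Log2 change with NCG in the ileum against deposited gene length (log axis) for all 15103 genes tested (grey) and the 46 USP genes, in red where called. USP15, USP34 and USP9X are long and higher, while USP6NL, USP54, USP3 and USP49 of similar length lie near 0.

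The other genes of the ubiquitin system were taken from lists of deubiquitinases outside the USP family, of USP partner proteins and of ubiquitin and its activating enzymes. In the ileum 5 of 33 other deubiquitinases were higher with NCG and 0 lower, against 5.42% and 0.43% of all genes. They were OTUD6B by 1.63, MINDY2 by 1.65, VCPIP1 by 1.25, MYSM1, another histone H2A deubiquitinase, by 1.15, and YOD1 by 0.93, all on the log2 scale. The median change of all 33 was -0.02, near the -0.07 of all genes. None of 7 partner genes was called, and of 7 genes for ubiquitin and its activating enzymes only UBA6 was, by 1.01. In the colon 0 of these genes passed, and the same 5 deubiquitinases had positive changes of 0.65 to 1.12. Beside the called USP genes on the chromosomes, 7 of 24 nearest genes were themselves higher with NCG in the ileum (TRPM7, MON2, NRIP1, LOC106508546, ZZZ3, XPO1 and PNISR), and beside the members not called 4 of 68, against 5.42% of all genes. Nearest genes can share a length class or an overlap with their neighbour, and the difference between these shares was not tested.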

How the data were processed

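Per the submitters' processing notes reads were handled with HISAT2 2.1.0, HTSeq 0.9.1 and fastp 0.22.0 against Sscrofa11.1. Their settings are not given in the sources used here. The authors deposited raw read counts per gene and library, without normalization, and FPKM values made from them. The deposited FPKM follow from the counts, gene length and library totals to a relative difference of at most 2.1e-07, and were used only for levels per length. The deposited gene length is in bases, per the file headers.

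Tests used edgeR 4.0.16 (R 4.3.3): filterByExpr, TMM scaling, quasi-likelihood F-tests and Benjamini-Hochberg adjustment over all genes tested, with a threshold of 0.05. Each tissue had its own fit of 4 diet means over 12 libraries, and comparisons between tissues used 8 group means over 24 libraries, 15 comparisons in all. SE is the log2 change divided by the square root of F. CPM are TMM-scaled over all 24 libraries, and log2 values of single libraries used a pseudocount of 0.5 CPM. Depth sets the counting error: 3 counts, the limit that a count of 0 allows, are 0.151 to 0.251 CPM, which covers counting error only. The scripts were tested on simulated data.

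Members were all genes named USP and a digit. Named were the called members, up to 12 a direction, and up to 5 with the smallest p where fewer than 5 were called, with values by library for 6 higher and 3 lower members in the ileum, 4 each way between tissues, USP18 and USP6NL. USP13, USP14 and USP43 were singled out, and USP25, USP32, USP34 and USP47 given by library beyond this rule, after their values were seen. The same holds for the members named for LF against HF. The members, role lists and marker lists were chosen with earlier results of these data known. Alternatives were DESeq2 1.42.0, other scaling (RLE), no filter, a replicate block, removal of the length trend (lowess, span 0.3), marker covariates, fits of only the libraries compared, and omission of single libraries. Fits without the libraries high in FABP6 or low in enterocyte markers (500 CPM) were added after seeing the data.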

Additional observations from a re-analysis of the deposited data

How the results depend on the processing

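The 12 members higher with NCG in the ileum numbered 11 to 13 when single libraries were left out (with USP5 lower without L+N replicate 1), 12 with a replicate block, and 15 higher with 3 lower by DESeq2. For L+N against LF in the ileum (12 members) the range was 3 to 12. That count was 8 with the block, 10 without the libraries high in FABP6, and 0 with only the 6 libraries compared. For H+N against LF in the ileum (7 members) the range was 0 to 9. That count was 13 with DESeq2, 2 with the length trend removed, 1 with marker covariates, and 0 with the replicate block, with only the 6 libraries compared and without the libraries high in FABP6. H+N against HF in the ileum (0 members) gave 4 with DESeq2. The NCG average in the colon (0 members) gave 0 to 4 when single libraries were left out, 1 with DESeq2, 15 with marker covariates and 8 without the libraries low in enterocyte markers. L+N against LF in the colon (0 members) gave 1, 14 and 6 under the same 3 alternatives, and H+N against LF in the colon (0 members) gave 14 with marker covariates. Colon against ileum (8 members) kept counts of 7 to 9 when single libraries were left out, and gave 7 with the replicate block, 11 without the libraries low in enterocyte markers and 10 without those high in FABP6. No direction reversed in any of these fits, and the cause of the differences was not tested. The share of all genes called is given above for some of these fits only, so the other counts stand without it.

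Whether replicate numbers pair the samples was not settled, as deviations from means of 3 libraries cannot exclude a block. Same-numbered libraries of different diets deviated together (r over 0.1) in 8 of 18 pairs in the ileum and 7 of 18 in the colon. Single r reached 0.70 in the ileum and 0.81 in the colon. In each tissue 6 of 12 libraries were closest to their own number. Depth limits USP26 and USP50, at 0 in most libraries, and USP51, with 1 to 33 counts, and no count of the files bears on protein or on deubiquitinase activity.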
